A study of Mus musculus with 20 samples.

Results

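Loss of the aryl hydrocarbon receptor was examined in multipotent progenitors (MPP) sorted from mouse bone marrow. Every MPP library was used, 5 labelled AHR KO (Ahr-KO) and 5 wild type (WT, C57BL/6), out of 20 libraries in the series. The remaining 10 libraries, of long-term haematopoietic stem cells (LT-HSC) from the same 2 genotypes, served only to show where the MPP response differed. Of 49568 gene rows, 16077 held enough counts in MPP to be tested. Per the labels all animals were untreated and between 8 and 12 weeks of age, and cells were sorted by FACS under steady-state conditions. The knockout allele, the sort gates and the sex of the animals are not known from the sources used here. Nothing in the labels says that the 5 libraries of a group came from separate animals, so p-values measure the spread between these libraries. The RNA protocol in the labels speaks of dendritic cells in groups of 3, which is neither the cell type nor the group size of this series.

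AHR is a transcription factor held in the cytoplasm by chaperones until it binds a ligand, such as dioxin, tryptophan metabolites or dietary indoles. It then enters the nucleus, pairs with ARNT and binds a short DNA core, from which it switches on detoxifying enzymes such as the cytochrome CYP1A1 and its own repressor AHRR. MPP are the offspring of stem cells that can still form all blood lineages but renew themselves little, and they carry early, low-level programmes of several lineages at once. The series asked through which genes AHR acts on the function and proliferation of stem and progenitor cells, with the mitotic kinase Aurora A in its title. Because whole sorted populations were sequenced, fewer cells of a type and less RNA per cell cannot be told apart in any value below.

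Total counts per MPP library ranged from 13712668 to 20738468, and levels are given as CPM, the reads of a gene scaled to a common library total, with totals adjusted by edgeR's TMM method. Most markers fitted the sorted population. Kit, counted as a marker of both populations, averaged 960 CPM in WT MPP and 1575 CPM in WT LT-HSC. Ly6a, also counted for both, averaged 79.6 and 67.1 CPM. Flt3, the receptor that marks MPP, had a mean of 480.3 against 57.1 CPM in WT LT-HSC, and Cd48, absent from the most primitive cells, 185 against 9.64 CPM, while the stem cell genes Mecom (55.5 against 219 CPM) and Hoxb5 (0.578 against 6.37 CPM) were low in MPP. Ahr transcripts did not check the labels. Ahr (chromosome 12 from 35497974 to 35535038 on the minus strand) had 5.8, 14.2, 12.3, 10.2 and 6.45 CPM in WT MPP 1 to 5 and 17.1, 9.8, 14.4, 19 and 19.2 CPM in the libraries labelled Ahr-KO MPP 1 to 5, so that the knockout libraries were not lower (log2 fold change 0.69 ± 0.27, edgeR adjusted p = 0.663). Some knockout alleles still yield transcripts that can be counted, and Ahr-KO below names these libraries by their label. 2 features of the libraries touch many results. Levels of long transcripts were high in WT MPP 1 and Ahr-KO MPP 5 (Spearman correlation, across genes, of a library's deviation with exon length of 0.31 and 0.30) and low in WT MPP 5 (-0.31) and Ahr-KO MPP 2 (-0.26). Immunoglobulin transcripts made up 6.14% of the counts of WT MPP 3 and at most 1.95% in the other MPP libraries.

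Loss of Ahr went with few changes that stood out of the spread between MPP libraries. edgeR's quasi-likelihood test called 5 of the 16077 genes at an adjusted p (Benjamini-Hochberg, two-sided) under 0.05, or 0.0311%. Garnl3, Arhgef25 and Apoe rose in Ahr-KO MPP, and Akr1c12 and Pf4 fell. Before adjustment 1065 genes had a p under 0.05, with 803.85 the number that chance gives, 3.13% of all genes higher and 3.49% lower in Ahr-KO. The 5 Ahr-KO libraries lay wholly above the 5 WT libraries in 98 genes (0.61%) and wholly below them in 90 (0.56%). These percentages are the background against which the members of each gene group below are counted. The typical variation between replicates was 29.2% (edgeR's common biological coefficient of variation).

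The calls lay close to the threshold. Leaving out WT MPP 2, 3, 4 or 5, or Ahr-KO MPP 1, 2 or 4, left 0 genes called. Without WT MPP 1 the test called 1 gene that is none of the 5 (Igkv4-91), without Ahr-KO MPP 3 only Garnl3, and without Ahr-KO MPP 5 it called Pf4, Apoe and Garnl3 together with Ide, a gene chosen for naming after its value was seen. With those 10 fits the log2 fold changes themselves stayed within 3.08 to 3.53 for Garnl3, 1.53 to 1.86 for Arhgef25, 0.60 to 0.72 for Apoe, -1.38 to -1.21 for Akr1c12 and -1.39 to -1.09 for Pf4, and their adjusted p reached 0.191. DESeq2's Wald test on the same counts called 50 genes, the 5 among them. Limma voom with library weights called 8, with 4 of the 5 among them but not Garnl3.

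**Figure D1:**
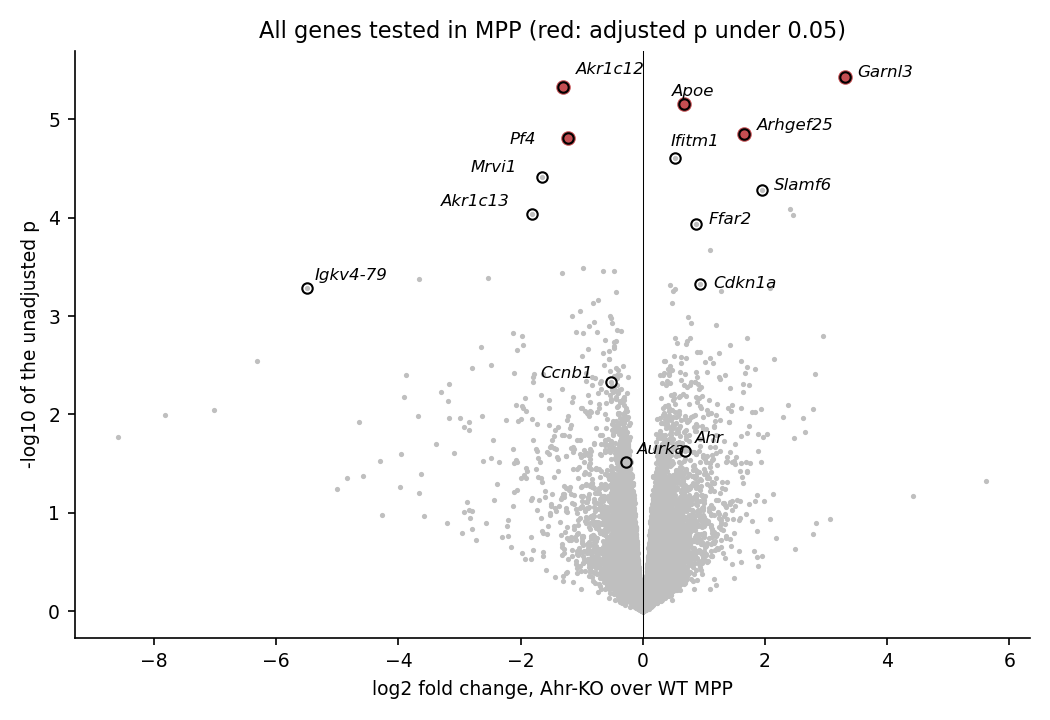
Log2 fold change (x) and -log10 of the unadjusted p (y) of the 16077 genes tested in MPP, 1 point per gene, with the 5 called genes in red and other genes of the text circled. Garnl3, Arhgef25 and Apoe lie to the right at the top and Akr1c12 and Pf4 to the left, while Aurka, Ccnb1 and Ahr lie within the cloud.

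**Figure D2:**
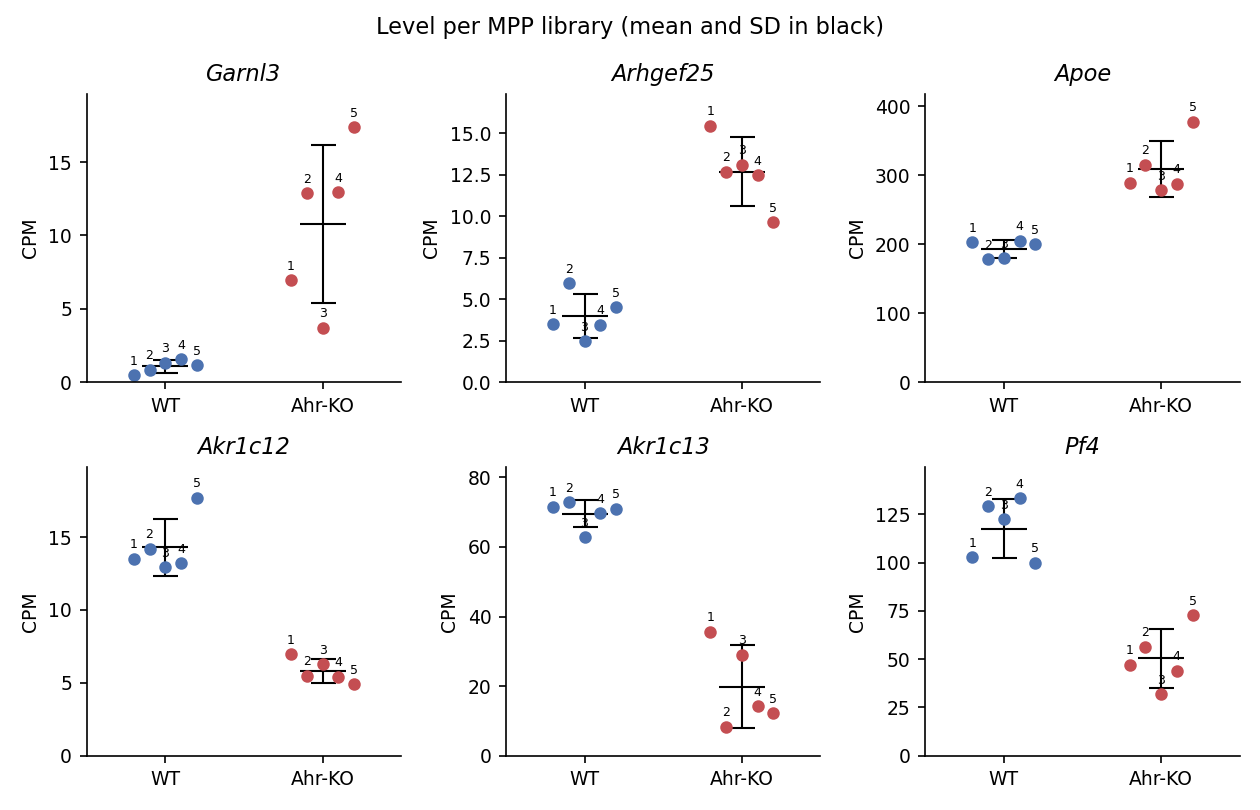
Levels in CPM (y) of Garnl3, Arhgef25, Apoe, Akr1c12, Akr1c13 and Pf4 in each MPP library, WT in blue and Ahr-KO in red, numbered by replicate, with the mean and SD in black. In all 6 genes the WT and the Ahr-KO libraries are apart.

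Garnl3 is related by its domain to the proteins that make the small GTPase RAP1 hydrolyse its GTP and so switch it off. It lies on chromosome 2 from 32986224 to 33131654 on the minus strand. It had 0.478, 0.847, 1.31, 1.56 and 1.16 CPM in WT MPP 1 to 5 and 6.95, 12.9, 3.72, 12.9 and 17.4 CPM in Ahr-KO MPP 1 to 5. WT values rested on 7 to 30 counts per library, while the lowest knockout library, Ahr-KO MPP 3, had 73 counts, and the groups did not overlap. The log2 fold change was 3.31 ± 0.43 (SE, edgeR adjusted p = 0.0373), a 9.9-fold rise. The knockout libraries differed among themselves, with Ahr-KO MPP 5 the highest and Ahr-KO MPP 3 the lowest.

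RefSeq gives Garnl3 2 start sites, and the 250 bases before each hold GCGTG, the core bound by AHR with ARNT, read on either strand (searched as GCGTG and CACGC). The first window has 1 match and the second 3. Of all 32851 RefSeq windows of this length 28.2% hold at least 1 match and 2.8% at least 3. A match shows only that the letters are there. The second window, chr2:33130620-33130869 (GRCm38.p6, minus strand), lies before the second start but within the span of the gene given above. Of its bases 66.4% are G or C, which the shares of all windows do not account for. It is printed because it overlaps no annotated exon and carries 3 matches, which are in capitals.
Garnl3 upstream window: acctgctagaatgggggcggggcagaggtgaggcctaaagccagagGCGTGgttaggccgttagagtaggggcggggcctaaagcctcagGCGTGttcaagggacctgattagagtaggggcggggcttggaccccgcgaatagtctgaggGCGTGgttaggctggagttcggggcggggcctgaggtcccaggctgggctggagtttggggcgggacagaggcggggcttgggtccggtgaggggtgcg
The windows of Apoe (3 start sites), Pf4, Akr1c12 and Akr1c13 held 0 matches. Arhgef25 has no entry among the RefSeq windows used.

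No other tested gene of the RAP cycle passed. Of the list of 23 RAP GTPases, activators and inactivators, 12 had positive and 11 negative log2 fold changes, and the median of 0.019 lay beside 0.0048 over all genes. Rasgrp3, an exchange factor of RAS and RAP used by lymphocytes, had 6.96, 6.43, 25.1, 5.44 and 5.96 CPM in WT and 1.05, 3.46, 4.74, 2.68 and 5.2 CPM in Ahr-KO (log2 fold change -1.54 ± 0.50, edgeR adjusted p = 0.614). WT MPP 3, the library rich in immunoglobulin transcripts, stood far above the rest, and the other 4 WT libraries were also above all knockout libraries. The GTPase gene Rap1b had 321 to 354 CPM in WT and 263 to 313 CPM in Ahr-KO, and Rasgrp2, the RAP1 activator of platelets, 100.3 to 119 CPM in WT and 104 to 157 CPM in Ahr-KO, with log2 fold changes of -0.21 ± 0.073 and 0.30 ± 0.12 that did not pass (adjusted p = 0.618 and 0.675).

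Arhgef25 encodes GEFT, an exchange factor that loads small GTPases with GTP and so acts on the actin cytoskeleton. It lies on chromosome 10 from 127182525 to 127190083 on the minus strand. Its level was 3.48, 5.98, 2.46, 3.47 and 4.52 CPM in WT MPP 1 to 5 and 15.5, 12.7, 13.1, 12.5 and 9.62 CPM in Ahr-KO MPP 1 to 5. Every knockout library exceeded the highest WT library, and the rise was 3.17-fold (log2 1.66 ± 0.25, edgeR adjusted p = 0.0491).

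Apoe, the apolipoprotein through which cells load and release cholesterol, and a brake on progenitor expansion when cholesterol efflux is active, had the smallest SE of the called genes. Apoe (chromosome 7 from 19696109 to 19699188 on the minus strand) had 203, 178, 180.1, 206 and 199.8 CPM in WT MPP 1 to 5 and 289, 316, 278, 288 and 378 CPM in Ahr-KO MPP 1 to 5. WT libraries lay within a narrow band and no knockout library reached it. The rise of 0.68 ± 0.094 on the log2 scale was 1.6-fold (edgeR adjusted p = 0.0374). Of the list on lipoprotein and cholesterol handling, 17 of 21 tested members were positive (median 0.079, and 0.14 and 0.15 without WT MPP 4 or Ahr-KO MPP 4). Of these 2, Apoe included, had an unadjusted p under 0.05. The sum of the list was 1170.3 to 1323 CPM in WT and 1350.3 to 1524 CPM in Ahr-KO. Apoe alone gave 178 to 206 CPM of it in WT and 278 to 378 CPM in Ahr-KO. The mean of the sum was 1224 CPM in WT and 1411 CPM in Ahr-KO, and that of Apoe 193.4 and 309.8 CPM. Apoe thus made up part of the gap, and the sum of the other members was not tested.

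Vldlr, a receptor that takes up lipoproteins carrying ApoE, had 74.3, 59, 67.6, 59.4 and 45.5 CPM in WT and 71.9, 99.7, 54.2, 110.5 and 87.4 CPM in Ahr-KO. The groups overlapped, since WT MPP 1 was above 2 knockout libraries, and the log2 fold change of 0.47 ± 0.18 did not pass (edgeR adjusted p = 0.663). Cyp27a1, the mitochondrial enzyme that makes 27-hydroxycholesterol, had 10.6, 4.33, 5.37, 11.2 and 7.45 CPM in WT and 12.6, 13.3, 17.3, 18.4 and 11.3 CPM in Ahr-KO, without overlap though closely (log2 0.91 ± 0.27, adjusted p = 0.56). Genes of cholesterol synthesis showed no such lean: 13 of 22 were positive with a median of 0.035, and 0 had an unadjusted p under 0.05.

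A pair of neighbouring aldo-keto reductase genes was lower in Ahr-KO MPP. Enzymes of this family reduce steroids, prostaglandins and reactive carbonyls with NADPH. Akr1c12 (chromosome 13 from 4268176 to 4279433 on the minus strand) had 13.5, 14.2, 12.9, 13.2 and 17.7 CPM in WT MPP 1 to 5 and 6.95, 5.48, 6.27, 5.41 and 4.91 CPM in Ahr-KO MPP 1 to 5. It fell by 1.30 ± 0.17 on the log2 scale (edgeR adjusted p = 0.0373), so that WT was 2.47-fold higher. Akr1c13 (chromosome 13 from 4191150 to 4205596 on the plus strand) had 71.6, 72.9, 62.8, 69.7 and 71 CPM in WT and 35.7, 8.29, 29, 14.2 and 12.2 CPM in Ahr-KO. WT libraries were tightly grouped, while knockout libraries fell into 2 levels, Ahr-KO MPP 1 and 3 at 35.7 and 29 CPM and the others at 8.29 to 14.2, and the difference of -1.81 ± 0.32 missed the threshold (adjusted p = 0.136).

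The 2 genes are copies of one another, and reads may be shared between them. Their GENCODE M21 transcripts were identical at 1192 of 1262 aligned positions (94.5%), with a longest identical run of 228 bases, against 69.6% with Akr1c14. How the counting treated reads that match both is not stated in the sources used here, so that the split of counts between them is uncertain. The likeness reaches into the region before the start sites, shown here for that reason from 250 to 41 bases before the RefSeq starts (GRCm38.p6, Akr1c12 at chr13:4279440-4279649 on the minus strand and Akr1c13 at chr13:4190937-4191146 on the plus strand), with capitals where the 2 differ or 1 has an inserted base.
Akr1c12 upstream window: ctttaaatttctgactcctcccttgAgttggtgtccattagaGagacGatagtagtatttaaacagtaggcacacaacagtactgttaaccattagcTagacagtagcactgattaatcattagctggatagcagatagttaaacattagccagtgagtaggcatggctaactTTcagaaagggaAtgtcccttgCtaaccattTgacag
Akr1c13 upstream window: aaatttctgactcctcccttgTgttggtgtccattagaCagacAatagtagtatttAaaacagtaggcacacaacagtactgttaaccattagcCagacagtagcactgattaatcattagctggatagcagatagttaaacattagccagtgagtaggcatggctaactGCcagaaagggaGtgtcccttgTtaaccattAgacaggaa
They were identical at 197 of 207 aligned positions (95.2%), the longest identical run being 75 bases.

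Of the 7 tested aldo-keto reductases, the pair included, 2 were positive and 5 negative, and outside the pair only Akr1b10 had an unadjusted p under 0.05. Akr1b10, which reduces retinal and lipid aldehydes, had 36.9 to 52.5 CPM in WT and 47 to 67.5 CPM in Ahr-KO (log2 0.31 ± 0.13, edgeR adjusted p = 0.705). NRF2, the oxidative stress factor, controls many reductases of this kind. The 27 tested genes of the NRF2 and glutathione list had a median of -0.032 with 12 positive. In that list Gsta4, a glutathione transferase for lipid aldehydes, was the member whose groups did not overlap, at 4.84 to 7.67 CPM in WT and 8.5 to 13 CPM in Ahr-KO (log2 0.70 ± 0.19, adjusted p = 0.554).

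Platelet genes formed a group of many members around a called gene. Pf4 encodes platelet factor 4, a chemokine of platelet alpha granules that megakaryocytes secrete onto stem cells. Pf4 (chromosome 5 from 90772435 to 90773383 on the plus strand) had 103, 129, 122, 133 and 99.9 CPM in WT MPP 1 to 5 and 47.1, 56.4, 31.8, 44.1 and 72.7 CPM in Ahr-KO MPP 1 to 5. All knockout libraries were below all WT libraries, with Ahr-KO MPP 5 the nearest to them. Pf4 fell by 1.22 ± 0.18 on the log2 scale, and WT was 2.34-fold higher (edgeR adjusted p = 0.0491).

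Of 17 tested platelet receptors and adhesion genes, 16 were negative, with a median of -0.42, and 8 had an unadjusted p under 0.05 on the lower side (5 without Ahr-KO MPP 1). None passed over all genes. Itgb3, the integrin beta 3 chain of the fibrinogen receptor, had 50.5, 35.6, 47.3, 34.2 and 20.5 CPM in WT and 17.9, 10.7, 21.8, 10.7 and 23.4 CPM in Ahr-KO (log2 -1.15 ± 0.27, edgeR adjusted p = 0.481), and only WT MPP 5 reached into the knockout range. Gp1bb, a subunit of the receptor for von Willebrand factor, had 10.6, 10.4, 10.003, 10.4 and 7.01 CPM in WT and 2.95, 4.11, 3.82, 4.9 and 8.44 CPM in Ahr-KO. Here WT MPP 5 was the low WT library and Ahr-KO MPP 5 the high knockout library, and these 2 crossed. Counts of Gp1bb cannot be separated fully from those of Sept5, with which its exons share 1902 bases on the same strand. The tetraspanin Cd9 stood at 85.7 to 98.1 CPM in WT and 67.5 to 91.7 CPM in Ahr-KO (log2 -0.29 ± 0.094).

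Granule genes leaned the same way. Of 12 tested members, Pf4 included, 10 were negative, 3 of them at an unadjusted p under 0.05, with a median of -0.56 that was -0.29 without WT MPP 3 and -0.93 without Ahr-KO MPP 5. Vwf, von Willebrand factor, had 55.4, 42.8, 43.4, 43.1 and 15.2 CPM in WT and 19.3, 8.65, 22, 11 and 29.8 CPM in Ahr-KO, and only WT MPP 5 fell within the knockout range (log2 -1.14 ± 0.35, edgeR adjusted p = 0.591). Serpine2, a thrombin inhibitor stored in granules, had 29.6 to 50.3 CPM in WT and 5.46 to 31.2 CPM in Ahr-KO. Selp, the P-selectin that granules bring to the surface, named after its value was seen, had 18.6 to 38.8 CPM in WT and 31.9 to 56.6 CPM in Ahr-KO (log2 0.44 ± 0.20). Plek, a substrate of protein kinase C in platelets, had 162 to 262 CPM in WT and 132 to 203 CPM in Ahr-KO (log2 -0.41 ± 0.13), and the 14 genes of the platelet cytoskeleton and signalling list had a median of -0.11, and -0.052 without WT MPP 1. Mrvi1, through which cyclic GMP restrains calcium release in platelets, had 5.87, 9.12, 10.1, 7.26 and 6.67 CPM in WT and 2.04, 2.88, 1.38, 2.98 and 3.09 CPM in Ahr-KO, wholly apart, and came close to the threshold (log2 -1.66 ± 0.27, adjusted p = 0.0875).

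Ahr-KO MPP 5 went against the other knockout libraries in this group. The summed platelet receptor list was 1021, 994, 922, 907 and 774 CPM in WT MPP 1 to 5 and 676, 652, 625, 789 and 1135 CPM in Ahr-KO MPP 1 to 5, so that the fifth was the highest of all 10 and the other 4 knockout libraries were low. The same library had the highest sum of LT-HSC markers, 2307 CPM where the other MPP libraries had 1238 to 1842, and the part of this in the platelet values was not tested. The median of the receptor list was -0.59 without it, -0.31 without Ahr-KO MPP 3, -0.67 without WT MPP 1 and 5 and Ahr-KO MPP 2 and 5, and -0.22 with 1 surrogate variable in the fit, where the granule list was at -0.27. Defining platelet markers were present in both genotypes: Ppbp and Gp9 averaged 2.01 and 13.8 CPM in WT MPP and 1.5 and 10.3 in Ahr-KO MPP. Of the 20 megakaryocyte and platelet markers, 19 could be tested, 10 were lower and 1 higher at an unadjusted p under 0.05, and none was at 0 in every MPP library. Their sum was 1112 to 1611 CPM in WT and 957 to 1520.1 in Ahr-KO.

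The transcription factors of the megakaryocyte and red cell branch did not follow the platelet genes as a set, with 12 of 22 negative and a median of -0.0041. Gfi1b, a repressor needed for both lineages, stood out, with 92.4, 99.9, 73.9, 75.2 and 103 CPM in WT and 53.2, 58.1, 64.6, 63 and 73.2 CPM in Ahr-KO, every knockout library below every WT library (log2 -0.51 ± 0.12, edgeR adjusted p = 0.502). Klf3, a repressor of the same branch, had 52.2 to 70.7 CPM in WT and 41.8 to 58.7 CPM in Ahr-KO, with overlap. Among red cell genes 24 of 28 were negative, with a median of -0.34, and 3 had an unadjusted p under 0.05. Without WT MPP 4 the median was -0.17 and the count 0, and without Ahr-KO MPP 1 and Ahr-KO MPP 4 in turn the count was 5 and 1. Rhd, the Rhesus blood group gene, had 23.7, 18.3, 12.5, 45.4 and 25.5 CPM in WT and 8.92, 14.9, 20.6, 5 and 12 CPM in Ahr-KO, and WT MPP 4 stood well above all others. Slc14a1, the urea transporter of red cells, had 87.3 to 144 CPM in WT and 70.1 to 129.7 CPM in Ahr-KO (log2 -0.45 ± 0.17), with Ahr-KO MPP 5 among the WT libraries.

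Mitotic genes, the subject of the study's title, leaned lower in Ahr-KO MPP without any single gene passing over all genes. Of 49 tested kinetochore, spindle and cytokinesis genes 45 were negative, with a median of -0.25, and 24 had an unadjusted p under 0.05 on the lower side, beside 3.49% of all genes. That count was 8 without WT MPP 1, 11 without WT MPP 2, 12 without Ahr-KO MPP 1 and 13 without Ahr-KO MPP 2. The summed list was 8707, 8114, 7144, 6862 and 6078 CPM in WT MPP 1 to 5 and 5668, 5909, 6498, 5971 and 6515 CPM in Ahr-KO MPP 1 to 5. WT MPP 1 and 2 were the high libraries, and WT MPP 5 lay within the knockout range. Genes of this list peak together in dividing cells, so that its members are not independent of one another.

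Of 22 tested regulators of mitotic entry 17 were negative, with a median of -0.16, and 7 had an unadjusted p under 0.05. Without WT MPP 1, WT MPP 2 or Ahr-KO MPP 1 that count was 3, and without Ahr-KO MPP 4 it was 4. The median was -0.10 without WT MPP 1, -0.097 without WT MPP 1 and Ahr-KO MPP 5, and -0.099 with 1 surrogate variable, where the kinetochore median was -0.14. Aurka, the Aurora A kinase that matures spindle poles, had 137, 145, 113, 118 and 120.5 CPM in WT and 87.2, 107, 128, 95.3 and 107 CPM in Ahr-KO. Ahr-KO MPP 3 lay among the WT libraries, and the log2 fold change of -0.27 ± 0.11 did not pass (edgeR adjusted p = 0.675). Ccnb1, cyclin B1, which drives entry into mitosis with CDK1, had 438, 315, 251, 259 and 249 CPM in WT and 171, 217, 238, 190.5 and 234 CPM in Ahr-KO, apart but with WT MPP 1 far above the rest (log2 -0.53 ± 0.15, adjusted p = 0.56). Plk1, the polo kinase activated by Aurora A, had 184, 139, 117, 108 and 105 CPM in WT and 80.4, 89.6, 112, 84.5 and 95.4 CPM in Ahr-KO, with only Ahr-KO MPP 3 reaching into the WT range (log2 -0.50 ± 0.15, adjusted p = 0.568). Cdk1 itself had 169 to 200.2 CPM in WT and 150.3 to 173 CPM in Ahr-KO (log2 -0.15 ± 0.078), and Ccna2, cyclin A2, 174 to 285 CPM in WT and 159 to 204 CPM in Ahr-KO (log2 -0.39 ± 0.12).

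Within the kinetochore list the members with the smallest p were Cenpf, Kif2c and Ckap2l. Cenpf, a large outer kinetochore protein, had 135, 148, 119, 137 and 96.2 CPM in WT and 68.8, 86.7, 98.9, 65.8 and 82 CPM in Ahr-KO, crossing only between WT MPP 5 and Ahr-KO MPP 3 (log2 -0.66 ± 0.14, edgeR adjusted p = 0.342). Kif2c, a kinesin that takes microtubules apart, had 94.3 to 145 CPM in WT and 64.1 to 99.5 CPM in Ahr-KO, and Ckap2l, a spindle pole protein, 116 to 236 CPM in WT and 94.4 to 129 CPM in Ahr-KO. Replication genes did not lean with them. Of 48 S phase genes 29 were negative with a median of -0.030, and 1 was on the higher and 1 on the lower side at an unadjusted p under 0.05. These were Ung, which removes uracil from DNA, at 8.8 to 12.3 CPM in WT and 11.7 to 16.6 CPM in Ahr-KO, and Rrm1, a subunit of ribonucleotide reductase, at 427 to 774 CPM in WT and 384 to 563 CPM in Ahr-KO.

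Cdkn1a encodes p21, the CDK inhibitor that halts the cycle downstream of p53. It had 13.7, 9.51, 9.2, 7.41 and 13.6 CPM in WT MPP 1 to 5 and 23.4, 25.2, 16.8, 18.6 and 18.9 CPM in Ahr-KO MPP 1 to 5, every knockout library above every WT library. The log2 fold change of 0.94 ± 0.20 did not pass over all genes (edgeR adjusted p = 0.342). Of the p53 targets, Cdkn1a included, 17 of 26 were negative with a median of -0.077. Btg2, an antiproliferative p53 target, had 44.1 to 71.6 CPM in WT and 34.7 to 45.4 CPM in Ahr-KO (log2 -0.47 ± 0.13, adjusted p = 0.554). Cdkn2c, the inhibitor p18 of CDK4 and CDK6, had 26.7 to 42.5 CPM in WT and 22 to 32.7 CPM in Ahr-KO (log2 -0.42 ± 0.15). The 13 tested CDK inhibitors and D cyclins had a median of -0.042.

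Histone cluster genes leaned higher in Ahr-KO MPP, and ribosomal protein genes did so with 1 exception among the alternatives. Of 60 tested histone cluster genes 56 were positive, with a median of 0.25, and 7 had an unadjusted p under 0.05. Without Ahr-KO MPP 4 the median was 0.14. The linker histone gene Hist1h1e had 15.2, 26.2, 15.3, 18.5 and 19.8 CPM in WT and 28.6, 35.5, 28.9, 37.6 and 24.2 CPM in Ahr-KO, and it shares exon sequence with Hist1h2be. Hist1h1b, another linker histone, had 8.23 to 22.3 CPM in WT and 19.2 to 38.4 CPM in Ahr-KO, and Hist1h2ae 11.8 to 15.2 CPM in WT and 15.6 to 20.8 CPM in Ahr-KO, the last without overlap. Most histone mRNAs carry no poly(A) tail, and libraries were made from poly(A) RNA. Ribosomal protein genes were positive in 83 of 84, with a median of 0.21, and 1 had an unadjusted p under 0.05, Rpl13a at 11.1 to 14.9 CPM in WT and 11.7 to 23.2 CPM in Ahr-KO. That count was 15 without WT MPP 5 and 13 without Ahr-KO MPP 5, and the median was 0.093 without WT MPP 1. With 1 surrogate variable in the fit the ribosomal median turned to -0.049, and 67 of 84 were negative.

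These are short genes: median exon length was 555.5 bases in the histone list and 1754.5 in the ribosomal list, against 3604.5 over all genes tested. The ribosomal sum was 20762, 25647, 29835, 29158 and 34750.0 CPM in WT MPP 1 to 5 and 35808, 35041, 33089, 30039.6 and 25339 CPM in Ahr-KO MPP 1 to 5. It was lowest in WT MPP 1 and Ahr-KO MPP 5, the libraries with the most long transcripts, and the groups overlapped. With each library's length correlation as a covariate the ribosomal median was 0.10 (79 of 84 positive), the histone median 0.22 and the kinetochore median -0.21 with 17 members lower at an unadjusted p under 0.05. The ribosomal median thus moved by over 1.5 times, and the other 2 by less.

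**Figure D3:**
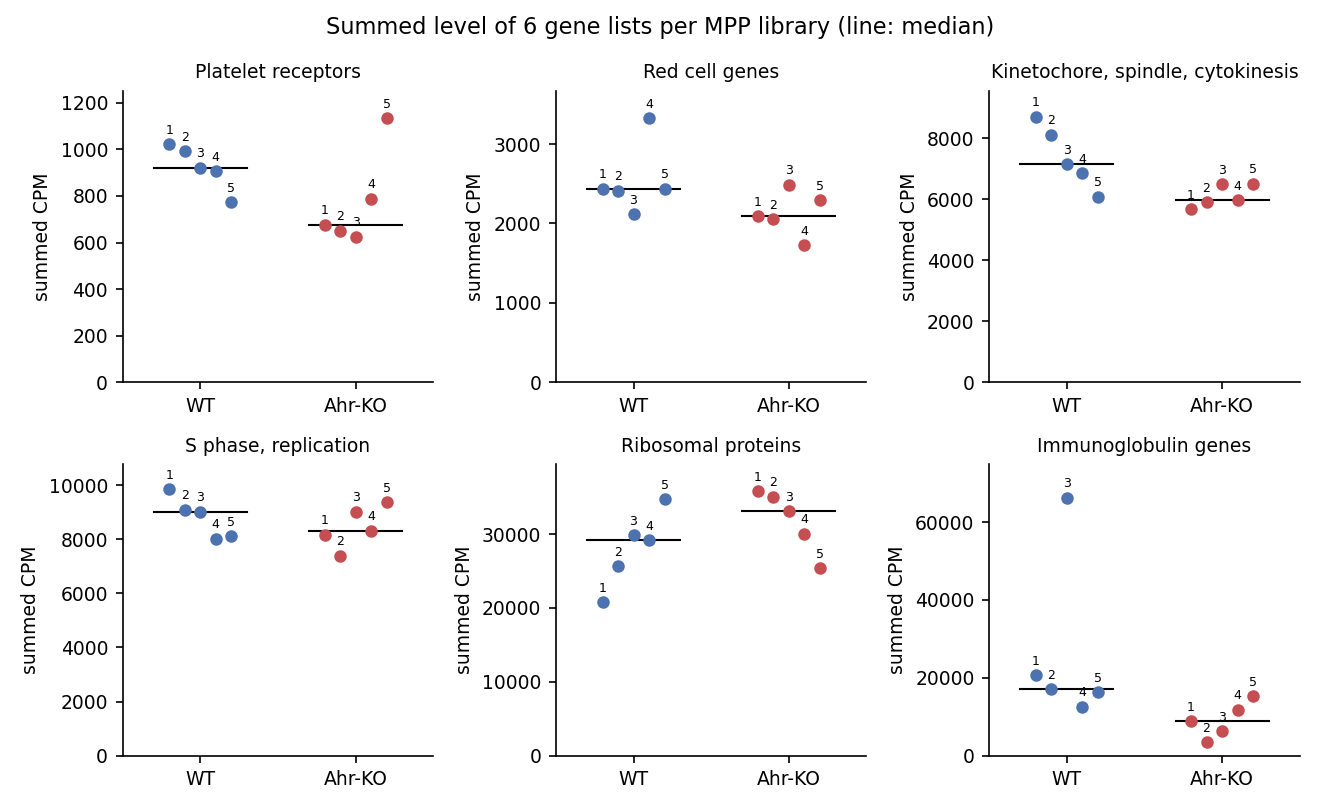
Summed level in CPM (y) of 6 gene lists in each MPP library, WT in blue and Ahr-KO in red, numbered by replicate, with the group median as a line. Ahr-KO MPP 5 is the highest library for platelet receptors, WT MPP 3 for immunoglobulin genes, and the groups overlap in all 6 lists.

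B cell genes were mixed. Igll1, the lambda5 chain of the surrogate light chain that pro-B and pre-B cells make, had 0.955, 1.59, 3.77, 8.71 and 3.7 CPM in WT MPP 1 to 5 and 17.5, 18.1, 15.1, 11.5 and 17.5 CPM in Ahr-KO MPP 1 to 5. The groups were apart, with WT MPP 4 the highest WT and Ahr-KO MPP 4 the lowest knockout library. The log2 fold change of 2.08 ± 0.45 did not pass (edgeR adjusted p = 0.342).

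Ebf1 and the Vpreb genes were named after their values were seen, for having higher values in Ahr-KO MPP. Ebf1, the factor that specifies the B lineage, had 0.887, 1.54, 0.857, 2.75 and 0.386 CPM in WT and 5.55, 9.01, 5.25, 0.91 and 8.05 CPM in Ahr-KO, where Ahr-KO MPP 4 was at the WT level. Vpreb1, the partner of lambda5, had 0.996 to 7.62 CPM in WT and 5 to 12.6 CPM in Ahr-KO, Vpreb2 0.341 to 1.87 CPM in WT and 1.38 to 4.37 CPM in Ahr-KO and Vpreb3 0.614 to 3.78 CPM in WT and 2.27 to 13.6 CPM in Ahr-KO, with log2 fold changes of 1.39 ± 0.45, 1.61 ± 0.52 and 1.84 ± 0.52 (adjusted p = 0.614, 0.614 and 0.554). Ahr-KO MPP 4 was the lowest or next to lowest knockout library in each. The levels of Ebf1 are low, resting on 7 to 53 counts per WT library and 18 to 164 per knockout library. Of the 12 B and plasma cell markers 5 had an unadjusted p under 0.05, each on the higher side. The sum of all 12 was 794 to 4362 CPM in WT and 385 to 1325 CPM in Ahr-KO. Most of it was the plasma cell gene Jchain, at 675 to 4087 and 198 to 1185 CPM. None of the 12 markers was at 0 in every MPP library. Their part in these values was not tested.

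Summed immunoglobulin transcripts were lower in most Ahr-KO MPP libraries. The sum over all 394 immunoglobulin rows was 20602, 17127, 66243, 12617 and 16279.7 CPM in WT MPP 1 to 5 and 8802, 3489, 6341, 11842 and 15289 CPM in Ahr-KO MPP 1 to 5. Of these rows 251 had too few counts to be tested. Of 143 tested segments and constant regions 108 were negative, with a median of -1.60, and 45 had an unadjusted p under 0.05 on the lower side. A segment with enough counts in WT alone could pass the filter. With the higher WT sums, the filter thus partly set these counts and the median, and they do not by themselves show a fall. In the sum WT MPP 3 was far above every other library, and Ahr-KO MPP 5 lay within the range of the other WT libraries. Without WT MPP 3 the median was -0.84, with 98 of 153 negative and 30 lower at an unadjusted p under 0.05. Ighm, the mu heavy chain, named after its values were seen, had 8898, 7368, 29715, 5559.6 and 7460.5 CPM in WT and 3948, 1505, 2733, 5315 and 6912 CPM in Ahr-KO.

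Each clone of B cells joins its own set of variable and joining segments. Igkv4-79, a kappa variable segment, had 6.62, 40.2, 1.03, 48 and 22.6 CPM in WT and 0.773, 0.144, 0, 0.859 and 0.785 CPM in Ahr-KO (log2 -5.50 ± 1.09, edgeR adjusted p = 0.342). Ighj1, a joining segment, had 6.07 to 38.7 CPM in WT and 2.52 to 5.41 CPM in Ahr-KO. Variable segments are near copies of one another, so that counts of a single one are uncertain. Plasma cell transcripts were present in all libraries: the joining chain gene Jchain had 675 to 4087 CPM in WT and 198 to 1185 in Ahr-KO. Over the whole B cell list the 2 directions met, with 11 of 25 positive, 6 higher and 2 lower at an unadjusted p under 0.05, and a median of -0.070, which was 0.39 without WT MPP 3.

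Cd74, the invariant chain of MHC class II, had 339.8, 229, 549.5, 159 and 311 CPM in WT and 189, 143, 125, 128 and 165 CPM in Ahr-KO (log2 -1.09 ± 0.27, edgeR adjusted p = 0.522), with only WT MPP 4 within the knockout range and WT MPP 3 the highest. H2-Aa, a class II chain, had 24.6 to 73.8 CPM in WT and 20.8 to 46.8 CPM in Ahr-KO. The 17 genes of antigen presentation had a median of -0.021. Flt3 itself had 553, 552, 407, 416 and 473 CPM in WT and 374, 401, 465, 327 and 266 CPM in Ahr-KO, with overlap (log2 -0.39 ± 0.15, adjusted p = 0.663). Ccr9, the chemokine receptor that guides lymphoid progenitors to the thymus, had 8.53, 3.29, 2.86, 2.9 and 3.31 CPM in WT and 0.632, 1.87, 1.78, 0.455 and 0.491 CPM in Ahr-KO, apart, with WT MPP 1 the high library. Ly6d, a mark of B-biased lymphoid progenitors, had 14 to 68.3 CPM in WT and 10.2 to 16.4 CPM in Ahr-KO, where WT MPP 3 alone gave the upper end. Xcr1, the receptor of cross-presenting dendritic cells, had 0.518 to 10.4 CPM in WT and 0.196 to 0.816 CPM in Ahr-KO, with WT MPP 1 alone giving the upper end. Of 24 lymphoid priming genes 1 was higher and 5 lower at an unadjusted p under 0.05 (median 0.030), and of 12 dendritic cell genes 1 and 3 (median -0.38, and -0.098 without Ahr-KO MPP 4). The dendritic cell median was also -0.24 without WT MPP 1, -0.19 without WT MPP 5 and -0.25 without Ahr-KO MPP 5, and it turned to 0.21 without WT MPP 1 and 5 and Ahr-KO MPP 2 and 5.

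Among myeloid lists, monocyte and macrophage genes leaned higher in Ahr-KO MPP, with 16 of 22 positive, a median of 0.31 and 6 at an unadjusted p under 0.05. The sum of the list overlapped between groups, at 653 to 920.4 CPM in WT and 529 to 1044 CPM in Ahr-KO. Cd5l, a macrophage secreted protein, had 4.96 to 10.7 CPM in WT and 8.26 to 15.9 CPM in Ahr-KO, and the complement gene C1qc 12.6 to 17 CPM in WT and 16.5 to 26.6 CPM in Ahr-KO. Macrophage markers as a whole summed to 573 to 827 CPM in WT and 673 to 1008 in Ahr-KO, with none of the 10 at 0 throughout. Their part in the values of the list was not tested.

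The 15 granulocyte-monocyte progenitor genes had a median of 0.031 and the 13 late neutrophil granule genes -0.0026. The latter was -0.28 without Ahr-KO MPP 3 and 0.22 without Ahr-KO MPP 4. Csf3r, the receptor for the granulocyte growth factor G-CSF, had 278, 241, 269, 219 and 207 CPM in WT and 320.5, 289.8, 293, 353 and 287 CPM in Ahr-KO, all knockout libraries above all WT libraries by a small margin (log2 0.34 ± 0.098, edgeR adjusted p = 0.554). Retnlg, a late neutrophil gene, had 1.3 to 6.48 CPM in WT and 1.47 to 22.8 CPM in Ahr-KO, and Chil3, a lectin of immature neutrophils, 57.2 to 108 CPM in WT and 13.8 to 72.4 CPM in Ahr-KO, in opposite directions. Mast cell, basophil and eosinophil genes were mixed as well, with 6 of 15 positive. Cma1, mast cell chymase, had 2.29 to 8.46 CPM in WT and 0.505 to 2.36 CPM in Ahr-KO. Il5ra, the eosinophil growth factor receptor, had 8.32, 5.58, 10.6, 6.01 and 6.23 CPM in WT and 3.23, 4.54, 2.29, 4.9 and 5.15 CPM in Ahr-KO, apart, while Prg2, the eosinophil granule major basic protein, had 579.6 to 1290.0 CPM in WT and 1004 to 2293 CPM in Ahr-KO.

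No gene of the AHR pathway passed the test. Of 14 tested partners, chaperones and coregulators 10 were negative, with a median of -0.090. Ncoa2, a steroid receptor coactivator that also works with AHR, had 92.2, 81.2, 85.9, 89.6 and 63 CPM in WT and 68.2, 42.3, 48.8, 61.2 and 72.5 CPM in Ahr-KO (log2 -0.49 ± 0.15, edgeR adjusted p = 0.589), and WT MPP 5 was the WT library inside the knockout range. The acetyltransferase gene Ep300 had 53.1 to 95.5 CPM in WT and 46.9 to 69.4 CPM in Ahr-KO. Of 19 known AHR targets 10 could be tested, and the classic targets Cyp1a1, Cyp1a2, Cyp1b1 and Ahrr had too few counts in MPP of either genotype. The tested 10 had a median of -0.017. Nqo1, a quinone reductase shared by AHR and NRF2, had 9.89, 12.1, 7.83, 8.61 and 9.6 CPM in WT and 6.6, 8.58, 6.37, 7.68 and 8.59 CPM in Ahr-KO (log2 -0.35 ± 0.18, adjusted p = 0.77). Hes1, a Notch target that is also an AHR target, had 0.546, 1.15, 1.43, 1.14 and 1.16 CPM in WT and 3.58, 2.09, 3.31, 1.42 and 2.65 CPM in Ahr-KO (log2 1.25 ± 0.36, adjusted p = 0.554), with Ahr-KO MPP 4 at the level of the highest WT library. Its levels are low, resting on 8 to 25 counts per WT library and 28 to 65 per knockout library.

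Interferon-stimulated genes, part of the defence against viruses, were positive in 31 of 44, with a median of 0.13, and 4 had an unadjusted p under 0.05, a count that single left-out libraries moved between 1 (without WT MPP 4 or Ahr-KO MPP 2) and 7 (without Ahr-KO MPP 3). The median was 0.072 without Ahr-KO MPP 4, 0.079 without WT MPP 4 and 0.20 without Ahr-KO MPP 3. Ifitm1, a membrane protein that blocks virus entry, had 143, 144, 139.6, 131 and 142 CPM in WT MPP 1 to 5 and 202, 199, 185, 232 and 187 CPM in Ahr-KO MPP 1 to 5. WT libraries were tightly grouped and all knockout libraries lay above them, and the log2 fold change of 0.52 ± 0.082 just missed the threshold (edgeR adjusted p = 0.0665). Bst2, tetherin, had 40.3 to 61.6 CPM in WT and 53.2 to 68.2 CPM in Ahr-KO, and Ifi27 79.3 to 116 CPM in WT and 89.8 to 172 CPM in Ahr-KO. Procr, the stem cell receptor EPCR, had 14.8 to 20.8 CPM in WT and 18.7 to 32.4 CPM in Ahr-KO (log2 0.49 ± 0.17), in a list of 24 LT-HSC genes with a median of 0.086 that was 0.012 without Ahr-KO MPP 5.

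Stress, clock and early response genes were mixed. Of 23 genes of the integrated stress and unfolded protein response 1 was higher and 4 lower at an unadjusted p under 0.05, and of 19 immediate early genes 2 and 2. Trib3, a pseudokinase induced by the stress factor ATF4, had 3.89, 4.04, 3.89, 4.25 and 2.54 CPM in WT and 9.55, 8.14, 8.36, 5.81 and 8 CPM in Ahr-KO, apart (log2 1.10 ± 0.22, edgeR adjusted p = 0.263). Asns, asparagine synthetase, also an ATF4 target, lay in the opposite direction at 56.6, 52.3, 50.3, 52.4 and 43.7 CPM in WT and 37.5, 37.4, 39.5, 13.8 and 38.2 CPM in Ahr-KO, Ahr-KO MPP 4 standing far below the rest. Per2, a repressor of the circadian clock, had 27.2, 24.3, 27.8, 24.4 and 24 CPM in WT and 36.2, 36, 34.8, 31.4 and 41.8 CPM in Ahr-KO, apart (log2 0.49 ± 0.11, adjusted p = 0.342), while the 18 clock genes split evenly, 9 positive and 9 negative. Myc had 455 to 719 CPM in WT and 687 to 811 CPM in Ahr-KO (log2 0.35 ± 0.12), and the AP-1 gene Fosl2 5.35 to 7.23 CPM in WT and 8.36 to 14.8 CPM in Ahr-KO, the latter without overlap.

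Further genes met the rule for naming, which 38 genes passed on the higher and 34 on the lower side (a mean of at least 5 CPM, an unadjusted p under 0.01 and no overlap, ranked by fold change). Camsap3, which holds the minus ends of microtubules, had 8.73, 6.97, 9.2, 7 and 7.67 CPM in WT and 12.6, 9.37, 13.9, 31.6 and 23.4 CPM in Ahr-KO, with Ahr-KO MPP 4 and 5 far above the other 3. Tcrg-C1, a constant region of the gamma chain of T cell receptors, had 2.34 to 5.88 CPM in WT and 5.91 to 9.87 CPM in Ahr-KO, in a list of 22 T and NK cell genes with 16 positive and a median of 0.25, which was 0.14 without WT MPP 4 and 0.16 without Ahr-KO MPP 2. Wdr86 had 3.47 to 5.94 CPM in WT and 6.34 to 15.9 CPM in Ahr-KO. On the lower side Slc46a3, a lysosomal transporter, had 14.4, 12.5, 17.3, 14 and 17.4 CPM in WT and 9.83, 8.07, 6.88, 8.7 and 5.06 CPM in Ahr-KO (log2 -0.98 ± 0.20, edgeR adjusted p = 0.342). Usf3 had 8.86 to 17.7 CPM in WT and 4.44 to 8.15 CPM in Ahr-KO, the tyrosine kinase gene Fer 11.8 to 23.7 CPM in WT and 5.35 to 11.1 CPM in Ahr-KO, and Hdac9, a class IIa histone deacetylase, 10.04 to 14.8 CPM in WT and 2.6 to 8.8 CPM in Ahr-KO. Slamf6, a lymphocyte receptor, and Ffar2, a receptor for short-chain fatty acids, were named after their values were seen. Slamf6 had 0.75, 1.84, 1.43, 2.7 and 2.87 CPM in WT and 8.29, 6.56, 8.11, 5.91 and 8.49 CPM in Ahr-KO (log2 1.95 ± 0.33, adjusted p = 0.105). Ffar2 had 11.6, 10.6, 10.2, 12.5 and 10.5 CPM in WT and 21.4, 25.4, 15.6, 22 and 17.6 CPM in Ahr-KO (log2 0.88 ± 0.16, adjusted p = 0.156). Both were wholly apart.

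**Figure D4:**
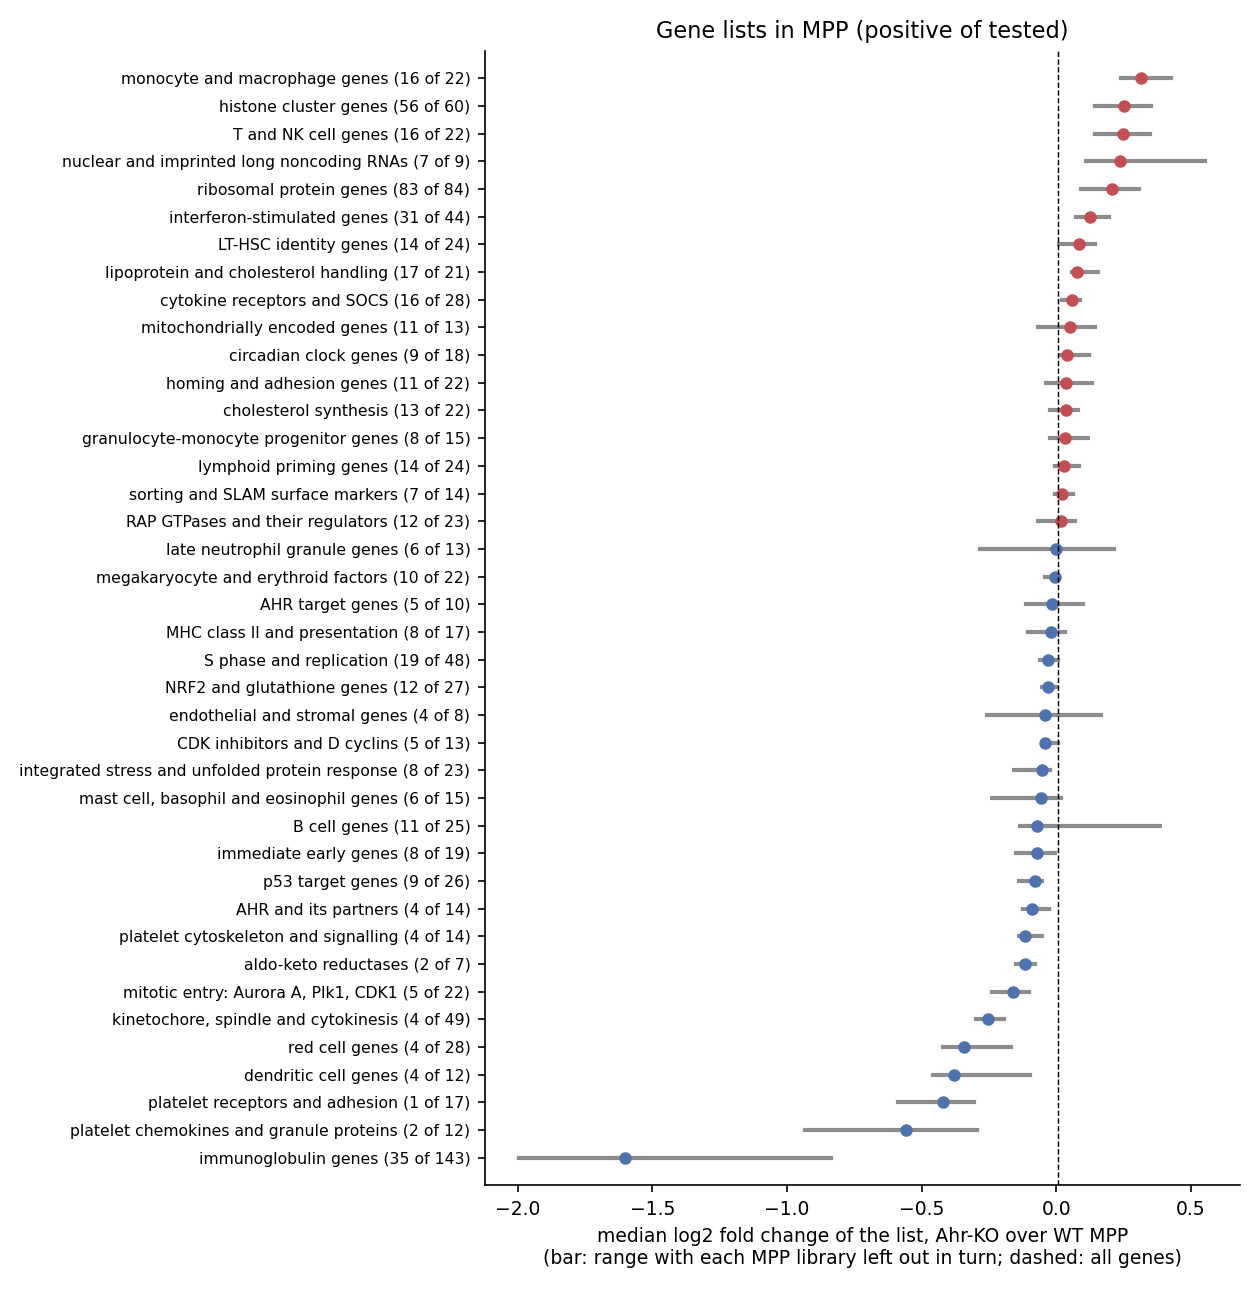
Median log2 fold change (x) of each of the 40 gene lists in MPP, Ahr-KO over WT, with the number of positive among tested members beside each name. Grey bars give the range with each MPP library left out in turn and the dashed line the median of all genes. Immunoglobulin genes and the lists of platelet granule and receptor genes lie lowest, and monocyte and macrophage genes highest.

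The MPP response was set against that of LT-HSC by testing the difference of the 2 Ahr-KO effects in 1 fit of all 20 libraries. It called 0 of 17416 genes (0%), with 1125 below an unadjusted p of 0.05 and 870.8 the number that chance gives, while DESeq2 called 50 and limma voom 17. WT LT-HSC 1 stood apart from its group, so that the SE of Apoe in LT-HSC was 0.16 with it and 0.050 without it, and edgeR again called 0 differences without it. Whether the 2 populations came from the same animals is not given in the labels. Akr1c13, picked after its values were seen, had 35.7, 8.29, 29 and 14.2 CPM in Ahr-KO MPP 1 to 4. Ahr-KO LT-HSC 1 to 4 had 40.1, 9.5, 30.9 and 14.7 CPM. Akr1c12 had 6.95, 5.48, 6.27 and 5.41 CPM in Ahr-KO MPP 1 to 4 and 8.22, 4.6, 8.07 and 9.56 CPM in Ahr-KO LT-HSC 1 to 4. Its libraries 1 to 3 kept the same order in both populations, and library 4 did not. Shared animals were not tested and the fit held no term for them, so likeness of the 2 populations may not be independent. Of the 72 genes that met the naming criteria in MPP, 68 could be tested in LT-HSC and 52 had the same sign there, beside 8086 of 15289 over all genes.

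Estimates for Garnl3 and the Akr1c pair were close in both populations. The log2 fold change of Garnl3 was 3.31 ± 0.43 in MPP and 3.43 ± 0.32 in LT-HSC (3.24 ± 0.24 without WT LT-HSC 1), that of Akr1c12 -1.30 ± 0.17 in MPP and -1.15 ± 0.23 in LT-HSC (-1.01 ± 0.20 without WT LT-HSC 1) and that of Akr1c13 -1.81 ± 0.32 in MPP and -1.98 ± 0.39 in LT-HSC (-1.81 ± 0.42 without WT LT-HSC 1). Their differences between populations were -0.10 ± 0.56, -0.13 ± 0.27 and 0.19 ± 0.53. Apoe was at 0.68 ± 0.094 in MPP and 0.36 ± 0.16 in LT-HSC (0.56 ± 0.050 without WT LT-HSC 1), Ifitm1 at 0.52 ± 0.082 in MPP and 0.32 ± 0.093 in LT-HSC (0.35 ± 0.082 without WT LT-HSC 1) and Cdkn1a at 0.94 ± 0.20 in MPP and 0.69 ± 0.22 in LT-HSC (0.73 ± 0.24 without WT LT-HSC 1).

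Estimates for Arhgef25, Pf4 and Itgb3 were further from 0 in MPP, that of Selp was further from 0 in LT-HSC, and none of these differences passed. Arhgef25 was at 1.66 ± 0.25 in MPP and 0.46 ± 0.18 in LT-HSC (0.41 ± 0.18 without WT LT-HSC 1), a difference of 1.22 ± 0.30 that did not pass (edgeR adjusted p = 0.382 with and 0.182 without WT LT-HSC 1). Pf4 was at -1.22 ± 0.18 in MPP and -0.28 ± 0.22 in LT-HSC (-0.25 ± 0.24 without WT LT-HSC 1), with an adjusted p of the difference of 0.588 with and 0.374 without WT LT-HSC 1. Itgb3 was at -1.15 ± 0.27 in MPP and 0.22 ± 0.37 in LT-HSC (-0.032 ± 0.11 without WT LT-HSC 1), and its difference had an adjusted p of 0.629 with and 0.289 without WT LT-HSC 1. Selp was at 0.44 ± 0.20 in MPP and 0.87 ± 0.23 in LT-HSC (0.89 ± 0.24 without WT LT-HSC 1). Over the platelet receptor list the median was -0.42 in MPP and -0.028 in LT-HSC. Some lists leaned alike in MPP and LT-HSC: ribosomal (0.21 and 0.22), interferon-stimulated (0.13 and 0.15), monocyte and macrophage (0.31 and 1.25) and kinetochore genes (-0.25 and -0.16). Others did not: histone cluster (0.25 and 0.0083), platelet granule (-0.56 and 0.12) and red cell genes (-0.34 and 0.62). These LT-HSC medians include every LT-HSC library, and differences of list medians were not tested. Trib3 stood at 1.10 ± 0.22 in MPP and -0.35 ± 0.30 in LT-HSC (-0.0090 ± 0.20 without WT LT-HSC 1), and Hes1 at 1.25 ± 0.36 in MPP and -0.66 ± 0.25 in LT-HSC (-0.52 ± 0.25 without WT LT-HSC 1), with adjusted p of the difference of 0.405 with and 0.193 without WT LT-HSC 1 and 0.296 with and 0.182 without WT LT-HSC 1. Ahr-KO LT-HSC 2 and 3 also stood apart, with summed late neutrophil genes at 2992 and 3656 CPM against 436 to 755 in the other LT-HSC libraries. Without these 2 and WT LT-HSC 1 the adjusted p of the difference was 0.559 for Trib3, 0.47 for Hes1, 0.52 for Arhgef25, 0.712 for Pf4 and 0.649 for Itgb3, and the difference of Trib3 was 0.94 where it was 1.46 with all libraries.

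The 3 genes with the smallest p of the difference had estimates of opposite sign in the 2 populations. Ranking by the difference favours such genes, so their signs are not a separate result. Reep2, a protein that shapes the endoplasmic reticulum, had 4.03, 4.08, 4.12, 4.04 and 4.14 CPM in WT MPP and 2.81, 2.74, 2.04, 1.87 and 2.95 CPM in Ahr-KO MPP, and its log2 fold change was -0.72 ± 0.23 in MPP and 0.54 ± 0.17 in LT-HSC (0.60 ± 0.17 without WT LT-HSC 1). Acap1, a GTPase-activating protein for ARF6 in membrane recycling, was at 0.24 ± 0.095 in MPP and -0.43 ± 0.093 in LT-HSC (-0.38 ± 0.078 without WT LT-HSC 1), and Sfxn4, a mitochondrial protein of the sideroflexin family, at 0.20 ± 0.19 in MPP and -0.99 ± 0.17 in LT-HSC (-0.89 ± 0.16 without WT LT-HSC 1). The adjusted p of all 3 differences was 0.296, and without WT LT-HSC 1 it was 0.134, 0.139 and 0.151. Without all 3 LT-HSC libraries that stood apart it was 0.304, 0.378 and 0.378.

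**Figure D5:**
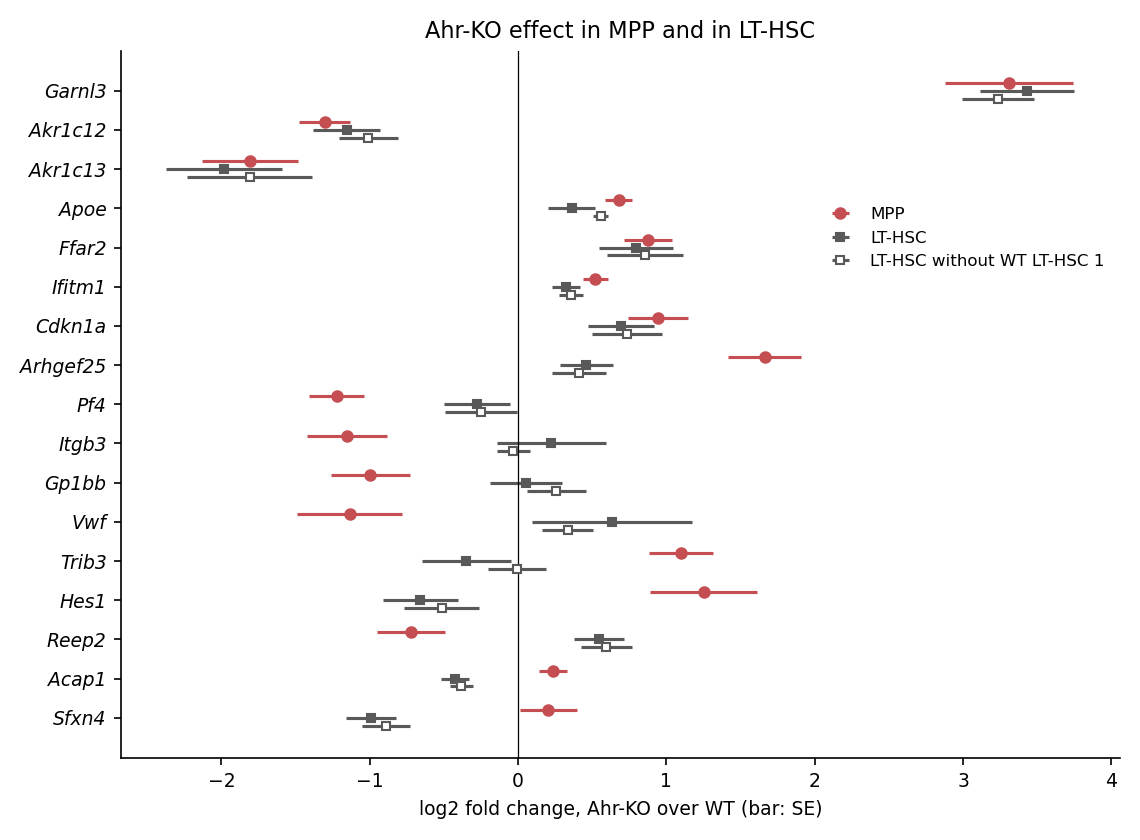
Log2 fold change with its SE (x) of 17 named genes, Ahr-KO over WT, in MPP (red) and in LT-HSC with all libraries (filled grey) and without WT LT-HSC 1 (open grey). Garnl3, Akr1c12 and Akr1c13 lie together in both populations, while Arhgef25, Pf4, Itgb3, Gp1bb and Vwf lie further from 0 in MPP.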

How the data were processed

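RNA of 10 MPP and 10 LT-HSC libraries was measured by sequencing of poly(A) RNA (TruSeq V2 kit, per the labels' protocols), which does not mark strand, so that overlapping antisense genes cannot be told apart. The authors deposited raw counts per gene symbol, whole numbers that are not normalized. Per the submitters' processing notes the build was GRCm38.p5 and the tools included STAR 2.5.2b, Trimmomatic 0.36, DESeq2 1.12.4 and, for counting, Subread 1.5.0p3. Annotation and settings are not stated in the sources used here. As deposited, 26 symbols read as dates, with up to 0.149% of the counts in a library. Positions and exon lengths came from GENCODE M21 (GRCm38), where 47114 symbols were found once, and windows before start sites from RefSeq (GRCm38.p6), where 10044 of the 16077 tested genes were matched. Alignments used Biopython 1.88.

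Ahr-KO was compared with WT on the 10 MPP libraries in edgeR 4.0.16 (R 4.3.3) with filterByExpr, TMM, the robust quasi-likelihood test and Benjamini-Hochberg adjustment over all genes, called at an adjusted p under 0.05. The difference from LT-HSC was tested in a 4-group fit of 20 libraries. Standard errors (SE) were taken from the fold change and the root of its F statistic. The fits were tested on simulated data with the same variation for every gene. The simulation held no length or immunoglobulin differences between libraries, so it cannot show how the fits behave under them. Lists are given by counts and medians, with no test of the list. Alternatives used DESeq2 1.42.0, limma 3.58.1 and sva 3.50.0, other filters and scalings, a replicate block and each library left out.

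The comparison, the gene lists and the alternatives were chosen with earlier results of these data known. Named genes are Ahr, Aurka, Ccnb1, Cdk1 and Plk1, every called gene, the 10 highest and 10 lowest by fold change among those averaging at least 5 CPM, with an unadjusted p under 0.01 and no overlap (predicted genes, pseudogenes and immunoglobulin segments left out), up to 3 members per list with the smallest p, and the 3 smallest p of the difference from LT-HSC. Not every eligible gene is printed, and some genes are not reported here.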

Additional observations from a re-analysis of the deposited data

Results flagged for a closer look

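Among 5 libraries of a group, 1 library was singled out where its gap to the nearest other exceeded 0.71 of the group's range. Of 262 groups examined, for named genes and list sums, 22 had such a library, where chance gives about 1 in 20, or 13.1. No explanation was weighed for any of them.

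WT MPP 3 stood above the other WT MPP libraries in lymphoid and immunoglobulin values: Ighm at 29715 CPM against 5559.6 to 8898, Ighj1 at 38.7 CPM against 6.07 to 9.56, Ly6d at 68.3 CPM against 14 to 21.9 and Rasgrp3 at 25.1 CPM against 5.44 to 6.96 in the others. The same held for the sum of immunoglobulin genes at 66243 CPM against 12617 to 20602, the sum of lymphoid priming genes at 32170.3 CPM against 7545 to 11841 (a list that includes Ighm) and the sum of B cell genes at 5898 CPM against 1646 to 2057.

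WT MPP 1 had Ccr9 at 8.53 CPM against 2.86 to 3.31 and Xcr1 at 10.4 CPM against 0.518 to 3.03. WT MPP 2 had the sum of monocyte and macrophage genes at 653 CPM against 884 to 920.4, and WT MPP 4 the sum of red cell genes at 3322 CPM against 2117 to 2439. WT MPP 5 had Akr1c12 at 17.7 CPM against 12.9 to 14.2, Gp1bb at 7.01 CPM against 10.003 to 10.6, Ung at 12.3 CPM against 8.8 to 9.47 and Trib3 at 2.54 CPM against 3.89 to 4.25.

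Among knockout libraries, Ahr-KO MPP 5 had Slc14a1 at 129.7 CPM against 70.1 to 85.3, Xcr1 at 0.196 CPM against 0.649 to 0.816, the sum of lipoprotein and cholesterol handling at 1524 CPM against 1350.3 to 1396 and the sum of cholesterol synthesis at 1380.2 CPM against 1095 to 1152. Ahr-KO MPP 4 had Asns at 13.8 CPM against 37.4 to 39.5 and the sum of immediate early genes at 1699 CPM against 1244 to 1354, and Ahr-KO MPP 1 had Ighj1 at 5.41 CPM against 2.52 to 3.34.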

How the results depend on the processing

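The number of genes called in MPP, 5, depended on the processing. It was 3 with DESeq2's size factors, 6 with no filter, 7 with at least 5 CPM in 5 libraries, 50 with DESeq2's Wald test (21 higher, 29 lower), 8 with limma voom, 2 without the robust option, 5 with all 20 libraries in 1 fit (3 of them among the main 5) and 1 with 1 surrogate variable. With each library left out in turn it ranged from 0 to 4. Alternatives chosen after seeing the data gave 0 without WT MPP 1 and Ahr-KO MPP 5, 0 without WT MPP 1 and 5 and Ahr-KO MPP 2 and 5, both with fewer libraries, 3 with the length correlation as a covariate, and 5 without immunoglobulin genes. The cause of the other shifts was not tested. No log2 fold change of a named gene changed sign in any alternative. Over named genes and alternatives, 1976 results kept their side of the threshold, 75 lost a call and 29 gained one. Only the 5 called genes could lose a call, and most of the 1976 were uncalled genes that stayed uncalled. Garnl3 kept its call in 9 of 22 alternatives, and Arhgef25 in 6, Apoe in 8, Akr1c12 in 10 and Pf4 in 6 of 23 each. Of the list medians 884 moved by less than the spread between WT libraries and 35 by more. The count for the difference between MPP and LT-HSC was 0 in the main fit, 0 with DESeq2's size factors, 50 with DESeq2's Wald test, 17 with limma voom, and 0 to 0 with each MPP library left out in turn and, chosen after seeing the data, WT LT-HSC 1. It was also 0 without WT LT-HSC 1 and Ahr-KO LT-HSC 2 and 3 together.

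With the replicate number as a block (replicate block), edgeR called 0 genes in MPP. Same-numbered WT and Ahr-KO libraries did not deviate together (correlations of -0.072, -0.058, 0.0031, -0.11 and -0.31), and no library correlated best with its own number, so that the numbers were not taken as pairs. Genes of few counts, such as Garnl3 in WT, are limited by depth.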
